A study of Mus musculus with 9 samples.

Results

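Myeloperoxidase (Mpo) and the serine proteases neutrophil elastase (Elane), proteinase 3 (Prtn3) and cathepsin G (Ctsg) are among the enzymes of the primary, or azurophil, granule of neutrophils. They were examined as a group of 4 genes, chosen by the accession of each probe, out of 16535 genes named on the array. Each gene had 1 probe on the array. All 4 probes were well above background on all 9 arrays, none was saturated or carried an outlier flag, and all entered the tests.

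The cells were FDCPmix, an established multipotent mouse haematopoietic progenitor line that self-renews in interleukin 3. In self-renewal conditions the line was infected with lentivirus and sorted for viable GFP+ cells 5 days later, which applied to all groups. The EV group received virus without an insert (the control), the Gata2 KD group carried shRNA against Gata2, and the Pu.1 KD group carried shRNA against Pu.1 (gene symbol Spi1), with 3 arrays in each. Cells were transduced in triplicate per the study's methods, and p-values measure the spread between these samples. FDCPmix is a cell line and each group is a bulk sorted population.

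Primary granules are filled at the promyelocyte stage, when the transcription of their enzymes is at its height, and the enzymes are stored in the granule until the neutrophil ingests a microbe. Myeloperoxidase uses hydrogen peroxide to make hypochlorous acid. Elastase, proteinase 3 and cathepsin G are trypsin-fold serine proteases made as inactive precursors, which cathepsin C activates. PU.1 is an ETS-family transcription factor needed for myeloid development, and GATA2 is a zinc-finger factor of stem and progenitor cells and of mast cells.

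The 4 promoters are shown because a motif of PU.1, a factor that was knocked down, occurs in each. For GATA2, the other factor knocked down, only the letters AGATAA were searched, and they occur in none. The study also reports GATA2 at repeated and palindromic forms of WGAT, which were not searched here. All 4 genes matched the RefSeq promoter table of GRCm38.p6, and the 250 bases upstream of each transcription start are printed 5′ to 3′ on the strand of the gene, with the PU.1 core motif GAGGAA in capitals on either strand. The Mpo window lies at chr11:87793534-87793783 on the plus strand, Elane at chr10:79886062-79886311 on the plus strand, Prtn3 at chr10:79879417-79879666 on the plus strand and Ctsg at chr14:56102575-56102824 on the minus strand.
Mpo: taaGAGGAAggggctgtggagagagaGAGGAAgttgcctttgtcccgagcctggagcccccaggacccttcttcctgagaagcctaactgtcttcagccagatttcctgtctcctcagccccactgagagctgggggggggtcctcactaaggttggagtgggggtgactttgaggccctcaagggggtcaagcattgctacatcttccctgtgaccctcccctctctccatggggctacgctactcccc
Elane: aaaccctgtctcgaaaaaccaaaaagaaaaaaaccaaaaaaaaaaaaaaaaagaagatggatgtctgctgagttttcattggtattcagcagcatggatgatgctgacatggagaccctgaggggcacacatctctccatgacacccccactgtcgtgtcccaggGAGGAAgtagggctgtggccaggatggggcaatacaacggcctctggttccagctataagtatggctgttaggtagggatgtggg
Prtn3: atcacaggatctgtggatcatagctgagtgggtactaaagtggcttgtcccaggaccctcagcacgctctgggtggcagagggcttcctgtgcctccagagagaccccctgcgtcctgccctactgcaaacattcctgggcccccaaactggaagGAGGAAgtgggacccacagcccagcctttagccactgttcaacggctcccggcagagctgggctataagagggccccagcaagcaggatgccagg
Ctsg: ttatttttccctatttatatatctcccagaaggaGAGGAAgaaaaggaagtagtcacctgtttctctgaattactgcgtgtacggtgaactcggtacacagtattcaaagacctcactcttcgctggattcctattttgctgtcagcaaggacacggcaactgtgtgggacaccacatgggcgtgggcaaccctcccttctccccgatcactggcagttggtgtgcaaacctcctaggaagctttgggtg

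GAGGAA occurred in all 4 windows, against 23.3% of 32851 promoter windows of the same length, and stood from -85 in Elane, from -95 in Prtn3, from -216 in Ctsg and from -247 and -224 in Mpo, counted back from the start. A MYB-type motif, TAACNG or CAACNG, also occurred in all 4 windows, against 43.1% of promoters, and 9.68% of promoters held both kinds, a joint share computed after the promoters had been read. In Elane and Prtn3, which are neighbours, the MYB-type letters CAACGG began at -51 and -56. The longer ETS sequence AGGAAGT was likewise searched afterwards, so its match is a description only; it occurred in all 4 against 7.69% of promoters, and overlapped GAGGAA in Mpo, Elane and Prtn3. The GATA motif AGATAA (9.99% of promoters) and the C/EBP motif TTNNGNAA (36.8%) matched none of the 4 windows, and the RUNX motif TGTGGT (14%) matched Ctsg only. A match is letters in a window and no measured binding, and these arrays do not measure binding.

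Both targeted genes were lower on the arrays labelled for them. Gata2 fell by 1.61 on the log2 scale in Gata2 KD (limma adjusted p = 0.00414) and differed from EV by -0.15 in Pu.1 KD (adjusted p = 0.964), and Spi1 fell by 1.73 in Pu.1 KD (adjusted p = 0.00178) and rose by 1.39 in Gata2 KD (adjusted p = 0.0012). Across the arrays 80.4% to 89.6% of probes were well above background. EV replicate 3 had the lowest mean correlation with the other arrays, 0.960, and leaving it out changed no call of the 4 enzyme genes against EV.

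The 4 transcripts rose in the Gata2 KD samples, and the order Gata2 KD above EV above Pu.1 KD held for all 4 genes with no overlap between the arrays of any pair of groups. Against EV, Mpo, Elane and Prtn3 rose 7.71-fold to 8.45-fold in Gata2 KD and Ctsg rose 1.945-fold. In Pu.1 KD Mpo fell 6.99-fold and Prtn3 2.755-fold, while the differences of Elane and Ctsg did not pass the test. The level of a gene is the log2 of its background-corrected (processed) signal relative to the 75th percentile of its array. All 4 genes were called higher in Gata2 KD (adjusted p under 0.05 in limma over all 36585 tested probes), where 2.96% of probes were called higher. In Pu.1 KD 2 of the 4 genes were called lower, where 1.42% of probes were. All 4 were called higher in Gata2 KD than in Pu.1 KD, where 4.86% of probes were. Every array of the group stood above every EV array for 7.65% of probes in Gata2 KD, and below every EV array for 9.32% in Pu.1 KD, and every Gata2 KD array stood above every Pu.1 KD array for 11.8%. The RNA came from a population, so fewer cells with a transcript and less of it per cell cannot be told apart.

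**Figure D1:**
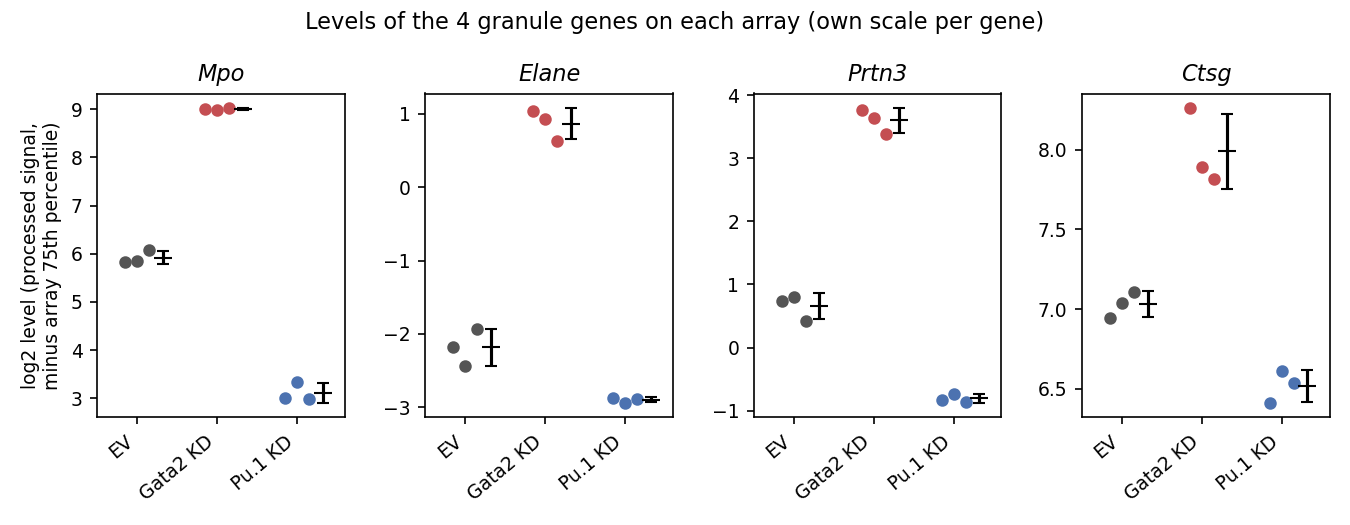
Log2 level of each gene on each array, as the log2 of the processed signal relative to the array's 75th percentile, on an axis of its own for each gene. Points are the 3 arrays of a group, and the dash with bars beside them is the mean and SD; in all 4 panels the groups fall in the order Gata2 KD, EV, Pu.1 KD without overlap.

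Mpo was measured at processed signals of 33420, 28340 and 32970 on the EV arrays, 224000, 235300 and 279700 on the Gata2 KD arrays, and 3732, 5058 and 3834 on the Pu.1 KD arrays. The Gata2 KD arrays were thus all high, and the Pu.1 KD arrays all low, with the EV arrays between. The log2 level was 5.92 ± 0.14 (SD, n = 3) in EV, 8.997 ± 0.02 in Gata2 KD and 3.11 ± 0.20 in Pu.1 KD. Mpo rose 8.45-fold in Gata2 KD (log2 change 3.08, SE 0.15, limma adjusted p = 1.71e-05) and fell 6.99-fold in Pu.1 KD (log2 change -2.81, SE 0.15, limma adjusted p = 0.000213). Only 8 of 15808 genes fell further in Pu.1 KD, and 84 rose further in Gata2 KD. Between the knockdowns the level differed 59.1-fold (log2 difference 5.88, limma adjusted p = 6.35e-07). The study itself picked out Mpo as raised on these Gata2 KD samples, like Lyz1, Lyz2, Csf3r and Csf1r below. It also reported a rise of Spi1 after Gata2 knockdown. The directions of these genes in Gata2 KD are therefore not independent evidence.

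The Elane probe gave processed signals of 129.7, 90.94 and 127.1 in EV, 902.1, 888.9 and 837.6 in Gata2 KD, and 63.09, 64.81 and 65.68 in Pu.1 KD. The Gata2 KD arrays stood far apart from the rest, and the 3 Pu.1 KD arrays lay close together under EV. The log2 level was -2.19 ± 0.25 (SD, n = 3) in EV, 0.87 ± 0.21 in Gata2 KD and -2.90 ± 0.03 in Pu.1 KD. Elane rose 8.30-fold in Gata2 KD (log2 change 3.05, SE 0.17, limma adjusted p = 3.3e-05). In Pu.1 KD the log2 difference from EV was -0.72 (95% interval -1.11 to -0.32), which did not pass the adjusted threshold (limma adjusted p = 0.078) and was -0.45 after normexp background correction. The median spot signal in Pu.1 KD was 3.81 to 4.19 times the local background, against 4.52 to 8.75 times in EV. The knockdowns differed 13.6-fold (log2 difference 3.77, limma adjusted p = 5.21e-06).

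Prtn3, which lies beside Elane, gave processed signals of 978.1, 860.5 and 654.3 in EV, 5984, 5835 and 5655 in Gata2 KD, and 259.8, 300.0 and 267.7 in Pu.1 KD. The 3 groups were well separated, and EV replicate 3 was the lowest of its group. The log2 level was 0.65 ± 0.20 (SD, n = 3) in EV, 3.60 ± 0.19 in Gata2 KD and -0.81 ± 0.07 in Pu.1 KD. Prtn3 rose 7.71-fold in Gata2 KD (log2 change 2.95, SE 0.16, limma adjusted p = 2.87e-05) and fell 2.755-fold in Pu.1 KD (log2 change -1.46, SE 0.16, limma adjusted p = 0.00376). The rise was exceeded by 92 genes and the fall by 117. The knockdowns differed 21.2-fold (log2 difference 4.41, limma adjusted p = 2.11e-06).

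Ctsg was measured at processed signals of 72460, 64700 and 67280 in EV, 134600, 110700 and 122000 in Gata2 KD, and 39540, 48580 and 45030 in Pu.1 KD. The groups did not overlap, but lay closer together than those of the other genes. The log2 level was 7.03 ± 0.08 (SD, n = 3) in EV, 7.99 ± 0.24 in Gata2 KD and 6.52 ± 0.10 in Pu.1 KD. Ctsg rose 1.945-fold in Gata2 KD (log2 change 0.96, SE 0.15, limma adjusted p = 0.00828), a call that was lost when arrays were scaled to their median (limma adjusted p = 0.0609). In Pu.1 KD the log2 difference from EV was -0.51 (95% interval -0.86 to -0.16), which did not pass the adjusted threshold (limma adjusted p = 0.165). No array flagged any spot as saturated, the Ctsg probe included. The knockdowns differed 2.77-fold (log2 difference 1.47, limma adjusted p = 0.000474).

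**Figure D2:**
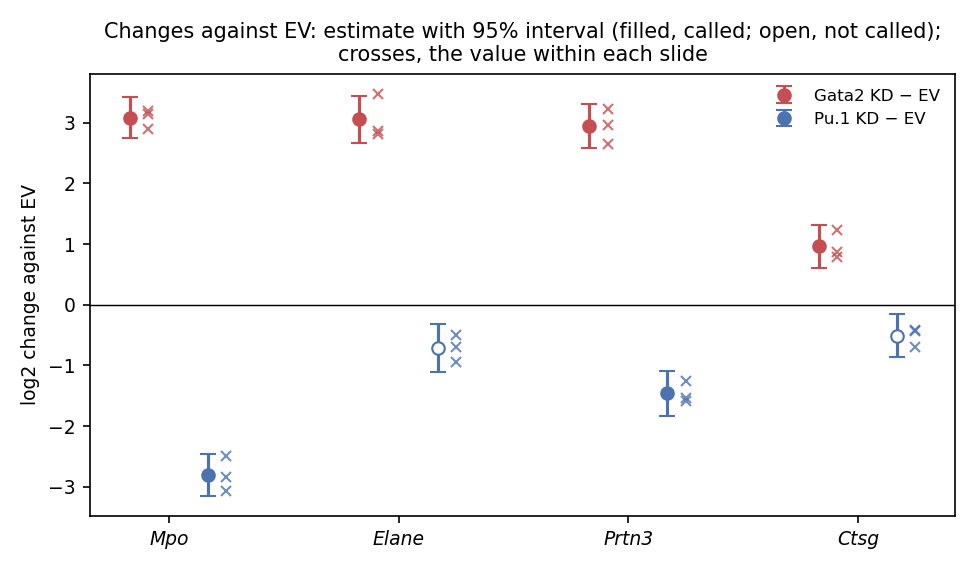
Log2 change of each gene against EV in Gata2 KD (red) and Pu.1 KD (blue). Circles are the limma estimates with 95% intervals, filled where the adjusted p was under 0.05, and crosses are the differences within each of the 3 slides, which all have the sign of the estimate.

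Each of the 3 slides held 1 array of each group, so every change could be read within a slide. The Mpo change ranged over slides from 2.90 to 3.19 in Gata2 KD and from -3.07 to -2.50 in Pu.1 KD, and the Prtn3 change from 2.65 to 3.22 and from -1.59 to -1.26. The Elane change ranged from 2.81 to 3.48 and from -0.94 to -0.50, and the Ctsg change from 0.78 to 1.22 and from -0.70 to -0.41. With the slide as a block no call of the 4 genes changed: the adjusted p in Pu.1 KD was 0.056 for Elane and 0.076 for Ctsg in limma.

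The changes of the genes were compared with each other by taking, on each array, the difference of their log2 levels, with an exact two-sided permutation test between groups of 3 that can give no p under 0.1. In Gata2 KD the changes of Mpo, Elane and Prtn3 differed from each other by 0.03 to 0.13 (exact permutation p = 0.6 to 0.8), a result that does not show the changes to be equal. Each of them exceeded the Ctsg change, by 2.12 for Mpo, 2.09 for Elane and 1.99 for Prtn3 on the log2 scale, with the smallest p possible, 0.1 (0.15 after adjustment over 12 tests). In Pu.1 KD the Mpo change was below that of Prtn3 by 1.34, of Elane by 2.09 and of Ctsg by 2.30, each at an exact permutation p of 0.1. The Elane and Ctsg changes differed by 0.20 (exact permutation p = 0.3).

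Of the other proteins of the primary granule, 3 of 6 rose in Gata2 KD and the same 3 fell in Pu.1 KD. Of all probes, 2.96% and 1.42% were called in these directions. Lysozyme genes Lyz1 and Lyz2, which encode enzymes that cut bacterial cell walls, rose by 4.18 and 2.71 on the log2 scale in Gata2 KD and fell by 1.29 and 1.37 in Pu.1 KD. A dimmer probe of Lyz2 gave 4.10 and -0.92, both called. The serine protease Prss57 rose by 0.83 and fell by 0.99. The adjusted p of these 6 changes ran from 1.26e-05 for Lyz1 in Gata2 KD to 0.0113 for Prss57 in Gata2 KD in limma. The Prss57 calls were lost in 3 of 20 alternatives in Gata2 KD and 4 in Pu.1 KD, and the Lyz1 call in Pu.1 KD in 5. Bpi, Cd63 and Gusb, a bactericidal protein, a granule membrane protein and an acid hydrolase, passed in neither comparison. The median log2 change of the 6 genes was 0.44 in Gata2 KD and -0.82 in Pu.1 KD, against -0.09 and -0.04 over 15808 genes.

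Of 6 genes linked to the activation and packing of the enzymes, none was called higher in either comparison. In Gata2 KD 1 was called lower, against 2.24% of all probes. It was Cst7, which encodes an inhibitor of cathepsin C and so no activator, at a log2 change of -1.42 (limma adjusted p = 0.00164). Ctsc, the gene of cathepsin C, gave 0.22 in Gata2 KD (adjusted p = 0.729) and -0.74 in Pu.1 KD (adjusted p = 0.067), and Srgn, the proteoglycan that holds the proteases in the granule, Calr, Canx and Ap3b1 passed in neither. Among the inhibitors of the proteases, 4 of 6 could be tested. Slpi, which inhibits elastase and cathepsin G, was called higher in Gata2 KD on its brighter probe (log2 change 1.13, limma adjusted p = 0.00385), while its other probe gave 0.89 (adjusted p = 0.107). Serpinb1a, an intracellular inhibitor of elastase, was called lower there (log2 change -0.62, adjusted p = 0.0405) but lost the call in 13 of 20 alternatives. No inhibitor passed in Pu.1 KD.

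Of 8 tested transcription regulators of myeloid granule genes, 4 rose in Gata2 KD and 3 fell in Pu.1 KD, against 2.96% and 1.42% of all probes. Irf8, which directs monocyte development, rose by 4.38 and Gfi1, a repressor needed for neutrophils, by 2.06 in Gata2 KD (adjusted p = 3.47e-06 and 0.000424 in limma; 2.36 on a dimmer probe of Irf8), and Cebpb, which acts in granulocytes and macrophages, rose by 1.11 (adjusted p = 0.034, lost in 9 of 20 alternatives), and by 1.26 on a dimmer probe (adjusted p = 0.00549). Spi1 was the fourth of those that rose and, as given above, was among the 3 that fell. It is the gene targeted in Pu.1 KD, so its fall there says nothing further about the list. Runx1 fell by 1.04 in Pu.1 KD (adjusted p = 0.037) and Cebpa, a regulator of granulocyte commitment, by 0.81 (adjusted p = 0.0257). These 2 calls were lost in 11 and 10 of 20 alternatives, and a dimmer probe of Cebpa gave -0.64 (adjusted p = 0.228). Myb and Cbfb were not called in either comparison, and Cebpe, the ninth gene of the list, had no named probe and was not tested.

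Of the genes of the later, secondary and tertiary granules, 7 of 9 rose in Gata2 KD, against 2.96% of all probes. The median log2 change was 3.26, led by Mmp8, a collagenase, at 5.04 and Lcn2, an iron-binding lipocalin, at 4.32. Ltf rose by 3.26, Camp, a precursor of an antimicrobial peptide, by 2.50, and Ngp, Chil3 and Retnlg by 2.92 to 3.68. In Pu.1 KD 6 of the 9 fell (against 1.42% of all probes), with a median of -1.15, from -1.67 for Ngp to -0.91 for Lcn2. The Pu.1 KD calls of Lcn2, Chil3, Ltf and Camp were lost in 10, 9, 6 and 3 of 20 alternatives, and a dimmer probe of Ltf gave -0.64 there (adjusted p = 0.078). Mmp9 (1.55 on one probe, adjusted p = 0.152, and 1.47 on its other probe, adjusted p = 0.00296, in Gata2 KD) and Cd177 were not called on the probe used.

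Of 11 tested relatives of the granule enzymes, 1 rose and 4 fell in Gata2 KD, against 2.96% and 2.24% of all probes. In Pu.1 KD 3 rose and 1 fell, against 1.27% and 1.42% of all probes. Epx, the eosinophil peroxidase, rose by 1.61 in Gata2 KD (adjusted p = 0.00259) and fell by 2.02 in Pu.1 KD (adjusted p = 0.00287). Among the protease genes of mast cells, basophils and lymphocytes, Gzmb fell by 1.92, Mcpt8 by 1.51, Cma1 by 1.23 and Mcpt2 by 0.91 in Gata2 KD, where the calls of Cma1 and Mcpt2 were lost in 7 and 4 of 20 alternatives. In Pu.1 KD Gzmc rose by 1.98, Mcpt2 by 1.62 and Cma1 by 1.49, the last a call that 6 of 20 alternatives lost and that a dimmer probe of Cma1 did not reach (1.35, adjusted p = 0.078). These protease genes are similar in sequence, and a probe may read more than 1 of them.

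**Figure D3:**
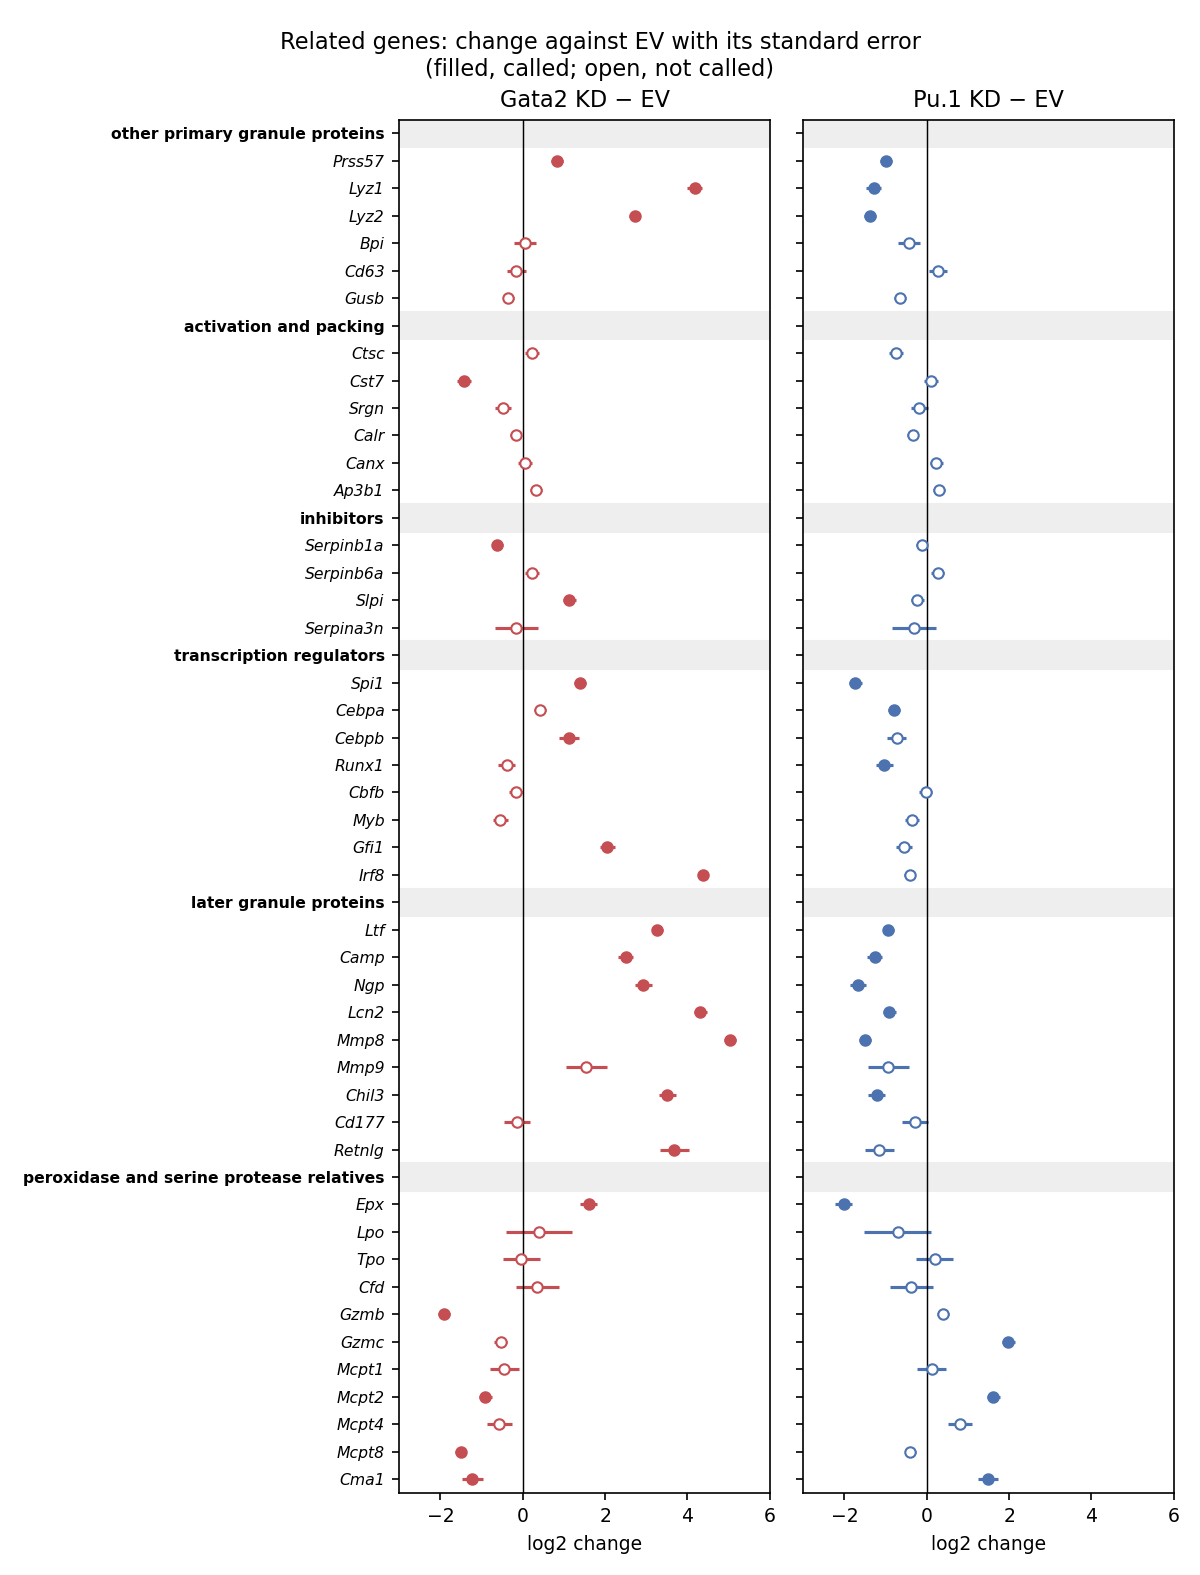
Log2 change against EV of the related genes in Gata2 KD (left) and Pu.1 KD (right), grouped by role, with bars of 1 SE. Filled circles had an adjusted p under 0.05. Lyz1, Lyz2 and the called later granule genes lie to the right in Gata2 KD and to the left in Pu.1 KD. The mast cell proteases Mcpt2 and Cma1 lie the opposite way, while Mcpt8 lies to the left in both and is filled in Gata2 KD only.

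Markers of other cell types also differed between the groups. Over all probes, 2.96% were called higher and 2.24% lower in Gata2 KD, and 1.27% and 1.42% in Pu.1 KD. The summed level of 5 measured monocyte and macrophage markers was 3.42 to 3.54 in EV, 31.3 to 36.8 in Gata2 KD and 2.07 to 2.36 in Pu.1 KD, in units of the array's 75th percentile. In Gata2 KD 4 of the 5 were called higher, Csf1r among them. A dimmer probe of Csf1r gave 3.28 there (limma adjusted p = 2.76e-05), while another gave 0.53 (adjusted p = 0.513). In Pu.1 KD only Adgre1 was called lower, and Csf1r and Ctss gave 0.25 and 0.09 on the log2 scale. A dimmer probe of Adgre1 was called in neither knockdown, at 1.29 in Gata2 KD (limma adjusted p = 0.234) and -0.61 in Pu.1 KD (adjusted p = 0.803). The sum of 6 mast cell and basophil markers was 100 to 117 in EV, 17.4 to 18.6 in Gata2 KD and 63.7 to 71.8 in Pu.1 KD. Of these markers, 4 were called lower in Gata2 KD and 2, Prss34 and Fcer1a, in Pu.1 KD, and none was called higher. Progenitor markers, all 8 well above background on 9 arrays, summed to 61.7 to 77 in EV, 78 to 92.2 in Gata2 KD and 62.7 to 69.5 in Pu.1 KD. This list went both ways, with 3 of 8 higher and 2 lower in Gata2 KD, where Cd34 rose by 2.17 and the lower genes were Tal1 and the targeted Gata2, and with 1 higher and 2 lower in Pu.1 KD. Megakaryocyte markers (3 genes) summed to 55 to 73.3 in EV, 56.1 to 86.6 in Gata2 KD and 141 to 166 in Pu.1 KD, where Pf4 was called higher. Erythroid markers (4 genes) summed to 9.04 to 10.14 in EV, 6.89 to 11 in Gata2 KD and 15.2 to 17.6 in Pu.1 KD, where Epor and Klf1 were called higher. In Gata2 KD the sums overlapped those of EV, but the same 2 genes were called lower. Their log2 changes there were -1.76 for Klf1 and -0.65 for Epor. The 3 lymphoid markers were not called in either knockdown. These values stand beside those of the granule genes, and their part in the results was not tested.

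The neighbours of the enzymes on the chromosomes were read for the 3 nearest genes with a tested probe on each side. Of 18 neighbours, 4 were called higher and 2 lower in Gata2 KD, against 2.96% and 2.24% of all probes. In Pu.1 KD 2 were called higher and 2 lower, against 1.27% and 1.42% of all probes. Epx, Mcpt8 and Mcpt2 are among these called neighbours and were already counted above as relatives of the enzymes. Prtn3 and Elane are adjacent, and Plppr3, the gene next to Prtn3 on the other side, rose by 2.37 in Gata2 KD (limma adjusted p = 3.37e-05) and fell by 1.63 in Pu.1 KD (adjusted p = 0.00138). The genes beyond, Ptbp1 and Misp on one side and Cfd, Med16 and R3hdm4 on the other, were not called. Near Mpo, Epx moved as given above while Lpo, which encodes lactoperoxidase and stands between them in this order, was not called. Rnf43 rose by 2.25 in Gata2 KD (adjusted p = 0.000227) and gave 0.53 in Pu.1 KD (adjusted p = 0.243), and Tspoap1 rose in both knockdowns, by 0.83 and 0.80, calls that 5 and 11 of 20 alternatives lost. Around Ctsg, the protease gene Mcpt8, next to it, fell by 1.51 in Gata2 KD (limma adjusted p = 0.000295). Mcpt2 fell by 0.91 there and rose by 1.62 in Pu.1 KD. The granzyme genes Gzme, Gzmd and Gzmf on the other side were not called.

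**Figure D4:**
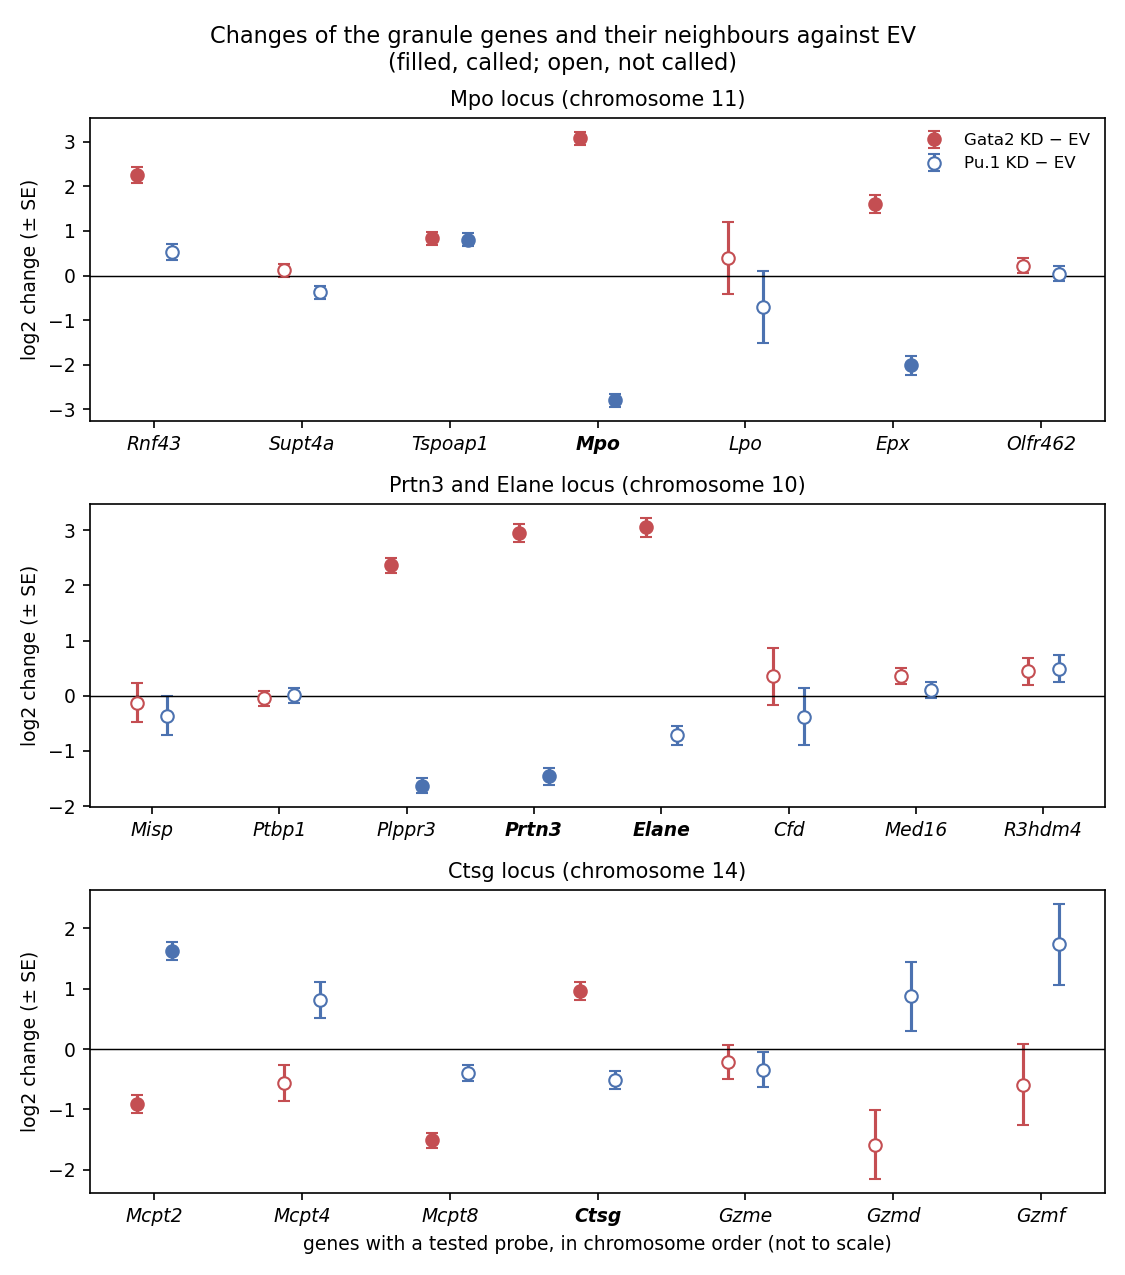
Log2 change against EV, with bars of 1 SE, for each enzyme gene (bold) and the nearest tested genes, in their order on the chromosome and not to scale. Red is Gata2 KD and blue is Pu.1 KD, filled where the adjusted p was under 0.05; Plppr3 rose in Gata2 KD and fell in Pu.1 KD, as Prtn3 did, and Mcpt8 and Mcpt2 fell in Gata2 KD, where Ctsg rose.

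The genes whose profiles over the 9 arrays were most like each enzyme were found by the root mean square difference between log2 profiles centred on their own mean, over 15774 genes. For Mpo they were Trem3 (0.27), Lsp1, S100a9, Igsf6 and Stfa2l1 (0.39), for Prtn3 Csf3r (0.16), Lyz2, Ngp, Ckap4 and Ltf (0.27), for Elane Cd14 (0.16), Pram1, Tmem154, Itgb2l and Cd300c2 (0.20), and for Ctsg Lair1 (0.08), Acsl1, Tep1, Ap1s2 and Ebi3 (0.11). Csf3r is the receptor of the granulocyte growth factor and S100a9 a calcium-binding protein of neutrophils and monocytes. Among the enzymes, Elane and Prtn3 were the closest pair (0.39) and Mpo and Ctsg the farthest apart (1.81). Prtn3 was the 30th closest gene to Mpo, Elane the 85th and Ctsg the 403rd. Seen from Ctsg, Elane ranked 14542, Prtn3 15197 and Mpo 15707 among the 15774 genes. The measure depends on the size of a change as well as on its pattern.

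**Figure D5:**
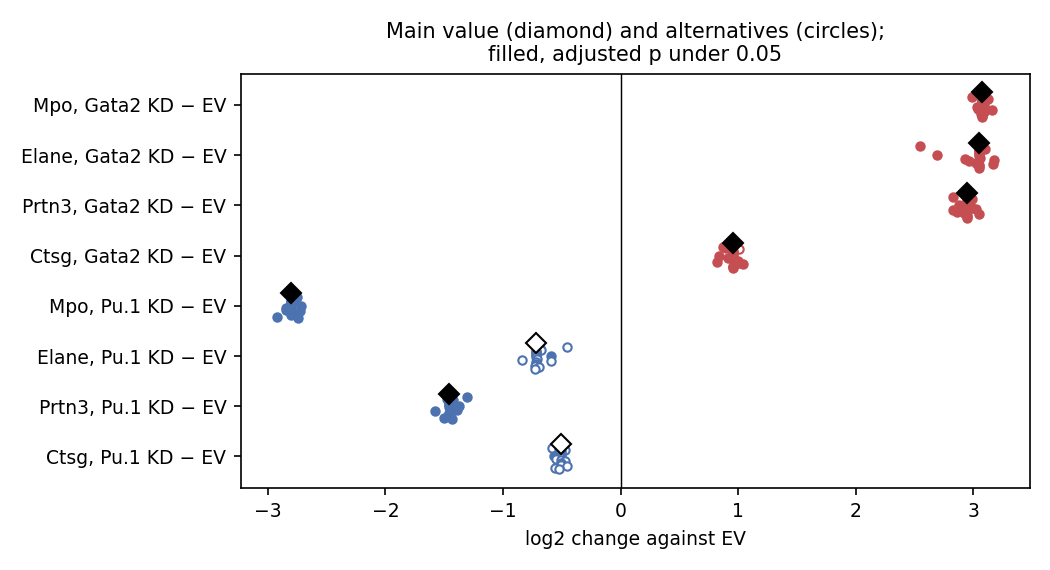
Log2 change of each enzyme gene against EV under the main processing (black diamonds) and 20 alternatives (circles), filled where the adjusted p was under 0.05. All values keep their sign, and only the Ctsg change in Gata2 KD and the Elane and Ctsg changes in Pu.1 KD cross the threshold in some settings.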

How the data were processed

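Total RNA (150 ng per sample) was labelled with Cy3 and hybridised to 1-colour Agilent whole mouse genome arrays. For each array the authors deposited Agilent Feature Extraction 10.1.1.1 output with spot intensity values, background-subtracted within the array (the processed signal) without scaling across arrays. A table of log2 values deposited beside them follows the log2 signal without background subtraction and was used only as an alternative.

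The level was the log2 of the processed signal relative to the array's 75th percentile, after control spots and outlier-flagged spots were left out. Probes well above background on at least 3 of 9 arrays (36585 of 41174) were compared by limma 3.58.1 in R 4.3.3 (lmFit over all 9 arrays, eBayes), with p-values adjusted by Benjamini-Hochberg across every probe in the test and a two-sided threshold of 0.05. Accessions were matched to RefSeq genes (23374 probes); a gene with more than 1 probe was represented by its brightest on average. Promoter bases after the start were left out. The normexp alternative used the median spot and background signals. The method was tested on simulated data. The genes, gene lists and tests were chosen with earlier results of these data known. The named genes were the 4 enzymes, the called genes of the lists, the targeted genes, the 5 closest profiles per enzyme and called chromosomal neighbours. The number of arrays limits the precision. Groups came from the sample titles.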

Additional observations from a re-analysis of the deposited data

How the results depend on the processing

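Over 20 alternatives, the Mpo and Prtn3 changes kept their direction and their side of the threshold in both knockdowns, as did the Elane rise in Gata2 KD and all 4 differences between the knockdowns. The ranges were 2.99 to 3.16 and -2.92 to -2.72 for Mpo in Gata2 KD and Pu.1 KD, 2.83 to 3.05 and -1.58 to -1.31 for Prtn3, and 2.55 to 3.18 and -0.84 to -0.45 for Elane, where normexp background correction gave both smallest values, 2.55 and -0.45, and the call in Pu.1 KD stayed absent there. The exceptions were Ctsg in Gata2 KD, not called when arrays were scaled to the median (log2 change 1.00, adjusted p = 0.0609 in limma), Ctsg in Pu.1 KD, called with trend and robust eBayes (-0.51, adjusted p = 0.04) and with the deposited log2 values (-0.57, adjusted p = 0.0167), and Elane in Pu.1 KD, called after quantile normalization (-0.68, adjusted p = 0.0447) and with the deposited log2 values (-0.59, adjusted p = 0.0208). The cause was not tested. The Cst7 value in Pu.1 KD, near 0, ranged from -0.043 (without EV replicate 2) to 0.19 with 1 array left out. The Tspoap1 difference between the knockdowns was -0.0057 with the deposited log2 values and -0.013 to 0.074 with 1 array left out, where leaving out Gata2 KD replicate 1 turned its sign.

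The count of probes called moved more. For Gata2 KD, Pu.1 KD and their difference it was 1902, 986 and 3524, and with the arrays scaled to the median 1203, 377 and 2259, with 69.7% against 57% of the Gata2 KD calls higher. With the replicate number as a block, although same-numbered arrays did not deviate together (correlations of -0.55 to 0.65, over 0.1 in 4 of 9 pairs), 1172 and 234 probes were called in Gata2 KD and Pu.1 KD, and the Ctsg rise in Gata2 KD had an adjusted p of 0.0481 in limma; the block changed no call of the 4 enzymes. Arrays of the same slide tended to deviate together (correlations of -0.04 to 0.72, over 0.1 in 8 of 9 pairs), which the main fit left out. With the slide as a block the counts were 2886 and 1875, and with only the 2 groups compared 1114 and 223. In Pu.1 KD, trend and robust eBayes called 1575 and the deposited log2 values 1785. Leaving out 1 array in turn gave 1072 to 1700 calls in Gata2 KD, 281 to 824 in Pu.1 KD and 2206 to 3932 between the knockdowns. The Gata2 KD count moved by more than 1.5 times without Gata2 KD replicate 2 (1072) or 3 (1211), the Pu.1 KD count without EV replicate 1 (503) or 2 (449), Gata2 KD replicate 2 (576) or 3 (628) and each Pu.1 KD replicate (281, 364 and 345), and the count between the knockdowns without Gata2 KD replicate 2 (2206). Each enzyme had 1 probe, so no other probe could be tried.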
